A study of Mus musculus with 6 samples.

Results

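The cytosolic ribosomal protein genes were followed across RNA-seq libraries of RM1, a mouse prostate cancer line, and of a labelled derivative of it. Members were chosen by name, as table entries whose symbol is Rpl or Rps with a number and at most 1 of the letters a, x or l, plus Rplp0, Rplp1, Rplp2 and Rpsa, with at least 10 counts in every library. Of 23791 named entries, 80 matched the name rule and 76 were members, 31 of the small (40S) subunit and 45 of the large (60S) subunit. The choice used no difference between samples, only the minimum count.

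The table held 6 libraries from cells labelled as C57BL/6. RM1 without a label was grown as cultures a and b, and RM1536, which is RM1 expressing eCFP and luc2 from pooled clones 5, 3 and 6, was also grown as cultures a and b. Bone and lung were 1 library each, of RM1536 recovered by FACS from the femur and the lung of a single mouse 16 days after intracardiac injection. Every group was then expanded in DMEM with 5% FBS to 85% confluency of a T75 flask, so all of the RNA came from cells growing in culture and none directly from tissue. Nothing in the labels says whether cultures a and b were started separately, so p-values measure only the spread between these libraries, which may be technical. For bone and lung, which have no replicate, the test assumed that they vary like the duplicate cultures.

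Cytosolic ribosomes translate nuclear-encoded mRNAs, and each ribosome needs 1 copy of nearly every ribosomal protein, with the acidic stalk proteins as an exception. Their mRNAs are among the most abundant in growing cells. Most start with a C followed by a run of pyrimidines, the 5′ terminal oligopyrimidine (5′TOP) motif, through which mTOR and Larp1 set how much of the mRNA is translated and how stable it is.

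The start of the gene is shown first because that motif is what sets these mRNAs apart from most others. RefSeq start windows (GRCm38.p6) were available for 56 of the 76 members, in 67 windows, among 32851 windows in all. A C at the annotated start followed by at least 4 C or T stood in 13 of 67 member windows (19.4%) and in 2.51% of all windows. A run of at least 8 C or T within 15 bases of the start stood in 27 of 67 member windows and in 3943 of all 32851. The 13 genes were Rpl14, Rpl15, Rpl28, Rpl35, Rpl35a, Rpl38, Rplp2, Rps6, Rps10, Rps15a, Rps18, Rps21 and Rps27. Below are 30-base windows of 7 of them, with 15 bases on each side of the boundary before the start and the tract in capitals. The last is 1 window of Rps27l, which like 43 of the members with a window lacked that strict start. This window does hold a run of 9 C or T, so it is among those with at least 8. Levels of Rps27l stood apart from the others, and a link of its start to them was not tested.
Rps6 (chr4:86857353-86857382, minus strand): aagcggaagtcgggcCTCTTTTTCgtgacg
Rpl15 (chr14:18270972-18271001, minus strand): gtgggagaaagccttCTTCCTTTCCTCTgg
Rpl35 (chr2:39005117-39005146, minus strand): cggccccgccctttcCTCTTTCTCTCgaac
Rps10 (chr17:27635230-27635259, minus strand): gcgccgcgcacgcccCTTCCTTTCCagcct
Rps18 (chr17:33955651-33955680, minus strand): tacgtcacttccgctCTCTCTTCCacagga
Rps27 (chr3:90213634-90213663, minus strand): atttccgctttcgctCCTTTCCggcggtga
Rpl38 (chr11:114668565-114668594, plus strand): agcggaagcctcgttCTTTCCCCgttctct
Rps27l (chr9:66946071-66946100, plus strand): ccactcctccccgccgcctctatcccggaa

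Short motifs were then counted on both strands of the 300-base windows, which run from 250 bases before to 50 bases after the start. CCGGAAG, the core bound by ETS-family factors such as Gabpa, stood in 37.3% of member windows and 8.86% of all windows. GGGCGG, the GC box, stood in 61.2% and 35.7%, AAGATGGC, the core of the Yy1 motif, in 10.4% and 2.75%, and CACGTG, the E-box bound by Myc, in 11.9% and 7.15%. TATAAA stood in 8.96% of member windows and 13.6% of all windows. The 100 bases before the start are given for 3 members that hold the ETS core, in capitals, within them. The percent above covers the whole 300-base window, so these examples do not show where the core lies in other members.
Rps6 (chr4:86857368-86857467, minus strand): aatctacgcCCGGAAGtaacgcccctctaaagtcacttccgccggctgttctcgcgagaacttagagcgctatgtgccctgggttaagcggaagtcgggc
Rps21 (chr2:180257279-180257378, plus strand): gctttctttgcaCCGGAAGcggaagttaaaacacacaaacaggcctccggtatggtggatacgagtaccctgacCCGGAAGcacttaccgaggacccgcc
Rpl38 (chr11:114668480-114668579, plus strand): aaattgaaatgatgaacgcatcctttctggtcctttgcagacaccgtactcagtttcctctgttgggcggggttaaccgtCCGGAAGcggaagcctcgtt

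The libraries held between 22763835 (bone) and 30303566 (RM1536 b) counts in named genes. Markers fitted a cultured epithelial line only in part. Krt8 stood at 990 to 2367 CPM (counts scaled to a common library size, here by total counts) and Krt18 at 280 to 469 CPM, but Epcam was at or below 1.36 CPM and Cdh1 at or below 0.409 CPM in every library. The prostate factor Hoxb13 had no count. Of the lists of host cell markers, those of erythroid cells, lung epithelium and endothelium summed to between 0.109 and 1.56 CPM in each library. The 10 leukocyte markers in the table summed to 11.5 and 46.7 CPM in RM1, 12.2 and 4.12 CPM in RM1536, 25.6 CPM in bone and 22.6 CPM in lung. Most of that was Cd68, at 3.66 to 44.6 CPM, while the leukocyte-defining Ptprc was at or below 0.0662 CPM and absent from bone and lung. The macrophage gene Lyz2 was at 2.68 CPM in bone and 2.71 CPM in lung and at 0 in the 4 cultures. Laptm5, at 1.52 and 1.96 CPM in RM1, 0.247 and 0.132 CPM in RM1536, 2.42 CPM in bone and 0.26 CPM in lung, was lower in RM1536 than in RM1 (edgeR adjusted p = 0.0343). Against RM1536, 3 of the 4 leukocyte markers that passed the filter were higher in bone and 4 of 4 in lung. Of the 4 osteoblast markers that passed it, 3 were higher in bone and 4 in lung. None of these differences of bone or lung from RM1536 passed the test. The 6 osteoblast markers summed to between 47.6 and 79.6 CPM, nearly all of it Runx2 (47.4 to 78.9 CPM), and Bglap2 was at 1.78 CPM in lung and at or below 0.0363 CPM elsewhere. The part of these genes in the results below was not tested.

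Together the 76 members took 7.95% (culture a, exact 95% binomial interval 7.94 to 7.96) and 7.89% (culture b) of counts in RM1, 8.25% (a) and 6.58% (b, interval 6.57 to 6.59) in RM1536, 7.74% for bone cells and 8.42% for lung cells. RM1536 b stood below the other 5 libraries, which ran from 7.74% to 8.42%. The pooled SD of the duplicates was 0.838 points, but it came mostly from the RM1536 pair, since the RM1 cultures lay close together. It is thus no separate measure of the ordinary spread between cultures. The intervals cover counting error only and are far narrower than the gap between RM1536 a and b. The split between subunits varied little, since 40S members took between 41.2% (lung) and 42.1% (RM1 a) of the members' counts. After TMM scaling the median member stood at 948 and 924 CPM in the RM1 cultures, 944 and 748 CPM in the RM1536 cultures (a and b), 882 CPM in bone and 996 CPM in lung. In these bulk libraries fewer cells of a type and less RNA per cell cannot be told apart.

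**Figure D1:**
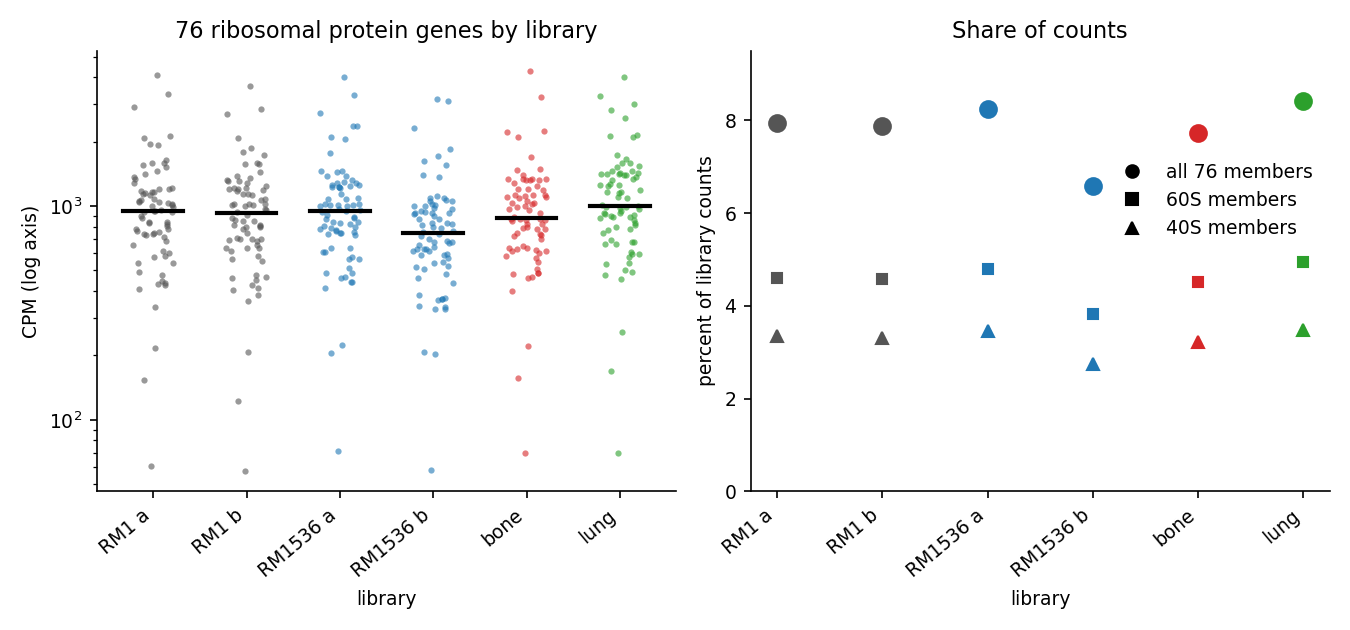
The left panel plots the CPM (log axis) of each of the 76 members in each library, with the median as a bar; the right panel plots the percent of library counts in all members, in 60S members and in 40S members. RM1536 b is the lowest library in both panels, at a median of 748 CPM after TMM scaling and 6.58% of total counts. Lung is the highest, at 996 CPM and 8.42%. Its place in the left panel depends on the TMM scaling, whose factor was lowest for lung (0.942).

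Levels between genes were compared as mean CPM over the 6 libraries per kilobase of coding-transcript exon. The highest were Rplp1 (3247 CPM per kb), a stalk protein, Rpl41 (2896), the smallest protein of the ribosome, Rplp0 (2851), the stalk base, Rps2 (2724) and Rps29 (2207). At the other end stood Rps15a (95.9 CPM per kb), Rpl23a (115), Rpl22 (208), Rps20 (220) and Rpl35 (235). Part of this order depends on the gene models, because the annotated exons of Rps15a add up to 5395 bases and those of Rps20 to 3706, against a median of 992 over the members. Near-identical copies matter too. Of 50-base windows along the exons of Rpl35, 95.1% also occur in another gene, and the figure was 85.7% for Rpl23a, which has 14 named pseudogenes.

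Such copies were the rule among the members. Named pseudogenes existed for 59 of 76, 75 shared at least 1 window of 50 bases with another gene, and 25 shared over 50% of their windows. The 134 pseudogene entries in the table held only between 0.045% and 0.056% as many counts as the members, so few reads were assigned to them. How reads that match several places were counted is not given in the sources used here, and the levels of members with many shared windows are uncertain to that degree. Exons of Rpl35 (68.3%), Rpl23a (55.4%), Rpl30 (55.0%), Rps25 (48.7%) and Rpl5 (46.6%) also overlap genes on the opposite strand, whose reads cannot be told apart without a stated strand setting.

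Paralogues with a restricted pattern were nearly silent. Rpl3l, the striated-muscle form of Rpl3, had 1 count in RM1 a and none in the other libraries, whereas Rpl3, which lines the peptidyl transferase region, stood at 1617 to 2819 CPM. Rps4l had 1 count in RM1536 a and none elsewhere, beside 1056 to 1535 CPM for Rps4x. Rpl6l had 0 to 12 counts. Rpl24 had only 2 to 12 counts although it encodes a standard 60S protein; 81.7% of its windows occur in other genes and 71.5% of its exon sequence lies under another gene model on the same strand, Gm28037, whose counts were not analysed here. Rpl10l and Rpl39l, which the name rule would take, were not among the 80 entries that matched it. Rpl10 stood at 898 to 1435 CPM and Rpl39 at 329 to 613 CPM. Rps27l, a paralogue of Rps27 that responds to p53, was clearly present, at 123 to 207 CPM, or 292 CPM per kb beside 1060 CPM per kb for Rps27.

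A difference shared by nearly all members lay between cultures that carry the same label. In RM1536, culture b was below culture a for 75 of 76 members, where 50.1% of all genes were lower in b. The median log2 ratio of b over a was -0.33 for the members and -0.00167 for all genes. Rps27 was at 565 CPM in a and 366 CPM in b, a log2 ratio of -0.63 and the lowest of the 76, and Rps27l was at 206 and 207 CPM, the 1 member that was not lower. In RM1, b was below a for 53 of 76 members with a median of -0.04, where 51.8% of all genes were lower. Of the 1004 genes with the highest CPM summed over the RM1 pair, 61.8% were lower in b, with a median of -0.085. Of the 956 highest in the RM1536 pair, 47.5% were lower in b, with a median of 0.033. RM1536 b was the lowest of the 6 libraries for 58 of 76 members, against 19.2% of all genes. With 1 library on each side this difference has no test. The pair is 1 of the 2 duplicate pairs from which the fit takes its residual spread.

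**Figure D2:**
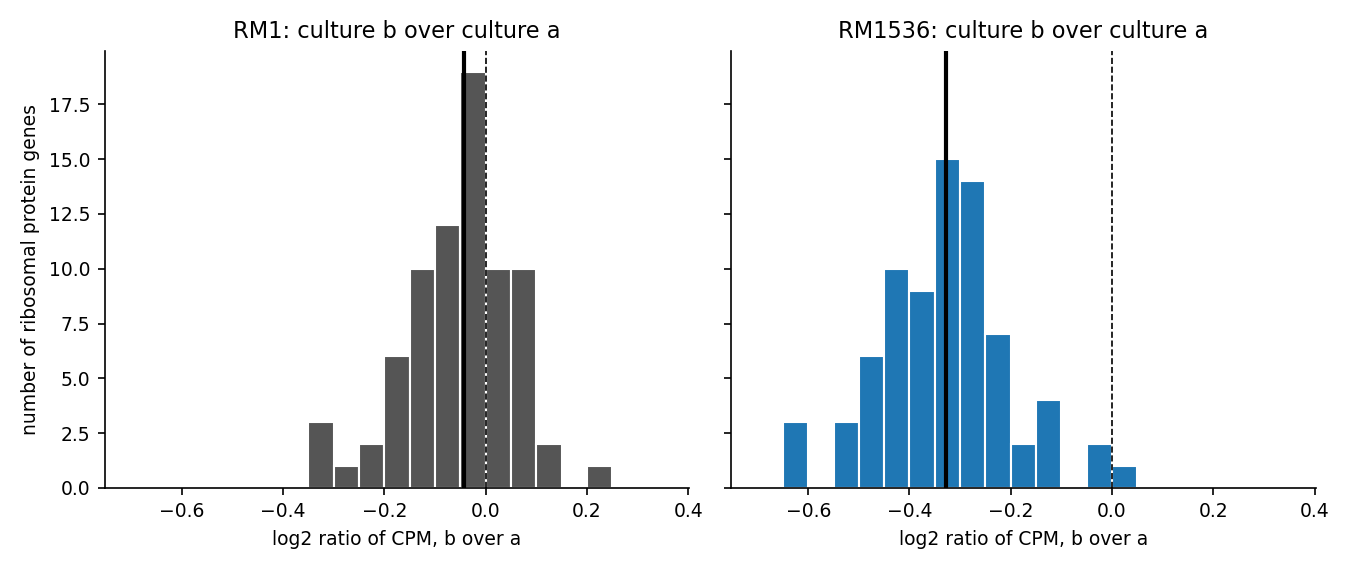
Histograms count the 76 members by the log2 ratio of CPM in culture b over culture a, for RM1 (left) and RM1536 (right); the thick line is the median and the dashed line no difference. In RM1 the median is -0.04, while in RM1536 it is -0.33 and 75 of 76 members lie below 0.

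Genes linked to the members were read in the same pair of cultures. Of 20 translation factors and other known 5′TOP genes, 16 were lower in RM1536 b than in a (median log2 ratio -0.14), and of 7 5′TOP host genes of small nucleolar RNAs 6 were lower (median -0.28). In RM1 the same 7 host genes were all higher in b than in a, by a larger median of 0.52, while 11 of the 20 translation factors and other 5′TOP genes were lower in b (median -0.02). RNA polymerase I and rRNA processing genes had 22 of 26 higher in RM1536 b (median 0.33) and 10 of 26 higher in RM1 b (median -0.06). The 76 mitochondrial ribosomal protein genes were divided, 37 lower and 39 higher in RM1536 b (median 0.0026). In the RM1536 pair the 13 members with the strict tract at the start had a median of -0.32 and the 43 with another start a median of -0.33. The split rests on the exact annotated base, and the 43 include genes with long tracts beside it, such as Rpl7a with a run of 21 C or T. It therefore cannot compare members with and without the motif.

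The labelled line was compared with its parent first, which asks how far labelling and clone pooling went with a difference in these genes. No member passed the test at an adjusted p of 0.05 (edgeR quasi-likelihood test, Benjamini-Hochberg adjustment over 13832 genes), where 780 genes, 5.64%, did. DESeq2 called 1 member, Rps20, and limma-voom none. At an unadjusted p under 0.05 there were 3 members, Rps27l higher and Rps20 and Rpl18 lower, beside 10.4% of all genes higher and 12.5% lower. The median log2 fold change was -0.09 over the members, with 24 higher and 52 lower, beside 51.4% and 48.6% of all genes and a median of 0.02 over all genes. Without RM1536 b the members' median was 0.053 and without RM1536 a it was -0.30, so its sign rested on which culture stood for the labelled line. The 95% intervals of single members reached a median of 0.53 on either side.

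Rps20, a 40S protein on chromosome 4 (3831334 to 3835665, GRCm38), was at 1035 and 1072 CPM in RM1 a and b, 729 and 525 CPM in RM1536 a and b, 698 CPM in bone and 829 CPM in lung. All 4 libraries of the labelled line lay below both of RM1. The log2 fold change of RM1536 against RM1 was -0.75 (SE 0.24, edgeR adjusted p = 0.134), and it ran from -1.03 to -0.55 with 1 culture left out. Over the alternative settings that kept all cultures, the edgeR adjusted p ran from 0.0182 to 0.288. The 0.0182 came from a crossed pairing of the cultures added after seeing the data. The lowest planned value was 0.0252 (edgeR), with no low-count filter. Rpl13a, a 60S protein also known for silencing inflammatory mRNAs, was at 1942 and 1796 CPM in RM1, 1450 and 1092 CPM in RM1536, 1398 CPM in bone and 1731 CPM in lung. It too was lower in all 4 labelled-line libraries, with a log2 fold change of -0.56 (SE 0.23, edgeR adjusted p = 0.224), although 54.9% of its exon sequence lies under another gene model on the same strand. Rps23, which sits at the decoding centre, was at 1583 and 1574 CPM in RM1, 1229 and 930 CPM in RM1536, 999 CPM in bone and 1146 CPM in lung. Its groups did not overlap either, and its log2 fold change was -0.55 (SE 0.23, edgeR adjusted p = 0.222). Rpl18 was at 1362 and 1326 CPM in RM1 and at 1001 and 920 CPM in RM1536, 1106 CPM in bone and 1251 CPM in lung, all below the parent, a log2 fold change of -0.48 for RM1536 (SE 0.20, edgeR adjusted p = 0.217).

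At the higher end, Rps27l (chromosome 9, 66946086 to 66949516) was at 153 and 123 CPM in RM1, 206 and 207 CPM in RM1536, 157 CPM in bone and 169 CPM in lung. All labelled-line libraries lay above both of RM1, and bone exceeded RM1 a by little. The log2 fold change of RM1536 was 0.58 (SE 0.21, edgeR adjusted p = 0.173), and over the alternative settings the adjusted p ran from 0.0345, with a crossed pairing of the cultures added after seeing the data, to 0.631. Rps14, needed for 40S maturation and lost in the human 5q- syndrome, was at 1516 and 1446 CPM in RM1, 2366 and 1559 CPM in RM1536, 1490 CPM in bone and 2093 CPM in lung. RM1536 b lay close to RM1 a and bone lay between the RM1 cultures, and the log2 fold change was 0.41 (SE 0.26, edgeR adjusted p = 0.416). Without RM1536 a it was 0.044. Rps21 was at 600 and 553 CPM in RM1, 801 and 671 CPM in RM1536, 821 CPM in bone and 816 CPM in lung. Its groups did not overlap, with a log2 fold change of 0.35 (SE 0.21, edgeR adjusted p = 0.373), or 0.19 without RM1536 a.

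Counted without a test, both RM1536 cultures lay below both RM1 cultures for 26 of 76 members, beside 26.9% of all genes, and above both for 4 (Rpl8, Rps14, Rps27l and Rps21), beside 27.2%. With bone and lung added, all 4 labelled-line libraries were below both RM1 cultures for 12 members, beside 18.3% of all genes, and above them for 3, beside 15.8%. Those below included Rpl7a, Rpl13a, Rpl15, Rpl18, Rpl27, Rpl27a, Rpl35a, Rps3, Rps20, Rps23 and Rps24. The share of members below was 34.2% for the RM1536 cultures alone, higher than the background, and 15.8% with bone and lung added, near it. The share above was 5.26% and 3.95%, smaller than the background in both counts.

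Since RM1536 b was low for nearly all members, each was also expressed as a percent of the ribosomal protein counts of its own library, which removes that common shift. Rps20 made up 1.29% and 1.39% of the total in RM1 a and b and 0.904% and 0.814% in the RM1536 cultures, 0.903% in bone and 0.928% in lung. Rps23 made up 1.97% and 2.05% in RM1 and 1.52%, 1.44%, 1.29% and 1.28% in the labelled-line libraries, and Rpl13a 2.42% and 2.33% against 1.80%, 1.69%, 1.81% and 1.94%. In the other direction Rps21 made up 0.749% and 0.718% in RM1 and 0.993%, 1.04%, 1.06% and 0.912% in the others, and Rps14 1.89% and 1.88% against 2.93%, 2.42%, 1.93% and 2.34%. All 4 labelled-line libraries stood apart from both RM1 cultures for these 5 members. Over the 76 members, 23 were below in all 4 and 19 were above in all 4. On the same scale 15.3% of all genes were below and 15.5% above. Those are not a matched background, because dividing other genes by this total adds the members' common shift to them. Shares of 1 total also move against each other. By CPM the member counts were 12 below and 3 above, beside 18.3% and 15.8% of all genes. These counts have no test, and the 4 libraries all descend from 1 pooled line.

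**Figure D3:**
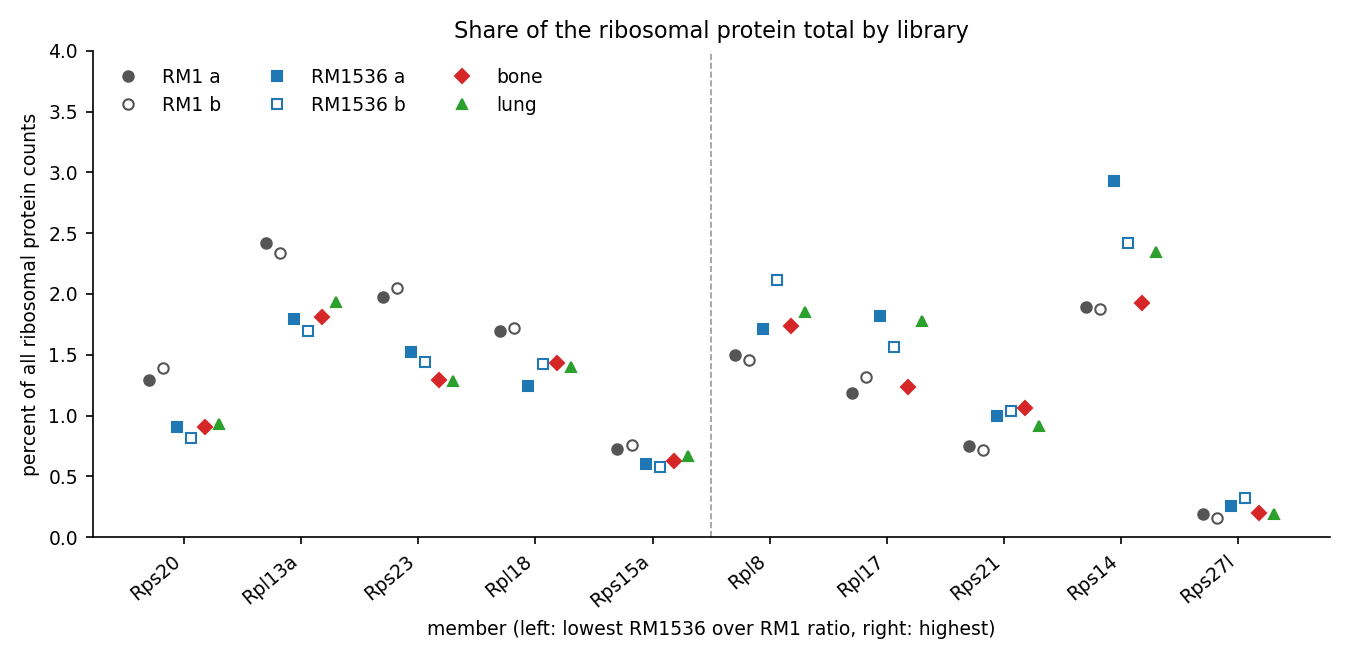
Each symbol is the percent of a library's ribosomal protein counts taken by 1 member, for the 5 members with the lowest (left of the dashed line) and the 5 with the highest (right) ratio of RM1536 over RM1 on this scale. Rps20 lies at 1.29% and 1.39% in the RM1 cultures and between 0.814% and 0.928% in the labelled-line libraries, while bone is near the RM1 cultures for Rps14, at 1.93%.

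Across the 76 members the log2 fold change of RM1536 against RM1 had a Spearman correlation of -0.42 with exon length and 0.24 with GC content, where over all genes with a model it was -0.07 and -0.01. These are descriptions over genes of the same libraries. In the 3 other comparisons the correlation with exon length lay between -0.19 and 0.14 and that with GC content between -0.03 and -0.0046.

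Of 8 ribosomal proteins tested that the name rule left out, 1, Rpl22l1, the paralogue of Rpl22, passed the test, beside 5.64% of all genes. It was at 38.3 and 39.5 CPM in RM1, 19.2 and 16.2 CPM in RM1536, 16.8 CPM in bone and 16.3 CPM in lung, and all labelled-line libraries lay below both of RM1. It fell by 1.14 on the log2 scale (95% interval -1.67 to -0.60, edgeR adjusted p = 0.0419). It also passed with limma-voom (adjusted p = 0.0372), with DESeq2 (adjusted p = 0.00119) and with no low-count filter (edgeR adjusted p = 0.00142). The adjusted p ran from 0.0905 to 0.159 when any 1 culture was left out, was 0.0533 with a filter of 1 CPM in every library and 0.123 with the replicate letter as a block. Rpl22 itself was at 434 and 384 CPM in RM1, 441 and 337 CPM in RM1536, 485 CPM in bone and 492 CPM in lung, and its groups overlapped. Fau, which encodes a fusion of a ubiquitin-like protein and eS30, ranged from 676 to 1087 CPM and was lowest in RM1536 b and highest in lung.

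The cells recovered from bone were compared with the injected line, which shares its control cultures with the lung comparison. No member passed the test (edgeR, Benjamini-Hochberg), where 2 of 13832 genes, 0.0145%, did, and none had an unadjusted p under 0.05, where 5.18% of all genes were higher and 4.74% lower at that level. DESeq2 and limma-voom called no member. The median log2 fold change was 0.14 with 60 members higher and 16 lower, beside 47.0% and 52.5% of all genes, whose median was -0.03. It was -0.0091 without RM1536 b and 0.31 without RM1536 a. Bone lay above both RM1536 cultures for 33 members, beside 33.6% of all genes, and below both for 9, beside 35.1%.

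Rpl39, a small protein of the exit tunnel encoded on the X chromosome (37082520 to 37085402), was at 440 and 329 CPM in RM1536 and 547 CPM in bone. Bone lay above both cultures, and the log2 fold change was 0.51 (SE 0.27, edgeR adjusted p = 0.64). Rpl34 was at 515 and 368 CPM in RM1536 and 623 CPM in bone, and Rpl31 at 955 and 762 CPM and at 1098 CPM, with log2 fold changes of 0.50 and 0.35. Both also lay above the pair of cultures without passing the test (edgeR adjusted p = 0.668 and 0.764). At the lower end were Rps14, with a log2 fold change of -0.40, Rps27l with -0.39 and Rpl17, next to the exit tunnel, with -0.37. Rpl17 was at 1465 and 1010 CPM in RM1536 and 955 CPM in bone, which lay below both cultures, as it did for Rps14 and Rps27l. None of the 3 passed the test (edgeR adjusted p = 0.797, 0.725 and 0.798). Without RM1536 a the log2 fold changes were -0.058 for Rps14 and -0.073 for Rpl17. Without RM1536 b they were 0.31 for Rpl39, 0.27 for Rpl34 and 0.20 for Rpl31, and without RM1536 a 0.74, 0.77 and 0.53.

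For the cells recovered from lung, no member passed the test, nor did any other gene with edgeR, a background of 0.0%. At an unadjusted p under 0.05 there was 1 member, Rpl39, higher, beside 6.46% of all genes higher and 7.29% lower (edgeR). DESeq2 and limma-voom called no member. The median log2 fold change was 0.33, with 71 members higher and 5 lower (Rpl9, Rpl11, Rpl15, Rps2 and Rps27l), beside 47.5% and 52.0% of all genes, whose median was -0.03. Scaled by total counts alone, the members' median was 0.21 and that of all genes -0.15. Lung lay above both RM1536 cultures for 62 of 76 members, beside 37.6% of all genes, and below both for 2, beside 39.2%. Lung was above RM1536 b for 74 members (49.4% of all genes) and above RM1536 a for 62 (48.1%), and the median was 0.54 without RM1536 a and 0.19 without RM1536 b. The counts of members above or below the RM1536 cultures used TMM-scaled CPM, with a scaling factor of 0.942 for lung and 1.02 for each RM1536 culture. The lower factor raises lung relative to them, and the counts were not repeated by total counts alone. Members move together within a library, so the counts describe 1 library and not 76 independent differences.

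Rpl39 was at 613 CPM in lung beside 440 and 329 CPM in RM1536, with a log2 fold change of 0.67 (SE 0.27, edgeR adjusted p = 0.36). Rpl3 was at 2819 CPM in lung beside 2110 and 1617 CPM, and Rpl37 at 946 CPM beside 746 and 544 CPM. Lung was above both cultures for each, with log2 fold changes of 0.60 (SE 0.27, edgeR adjusted p = 0.397) and 0.55 (SE 0.28, edgeR adjusted p = 0.431). The lowest were Rps27l at -0.28, with lung at 169 CPM below both cultures, Rpl9 at -0.09 and Rps2 at -0.09. Rpl9 was at 681 CPM in lung between 882 and 572 CPM in RM1536, and its log2 fold change was 0.28 without RM1536 a, while that of Rps2 was -0.0083. Without RM1536 b the log2 fold change of Rpl37 was 0.36, and without RM1536 a it was 0.83. The edgeR adjusted p of Rps27l, Rpl9 and Rps2 were 0.629, 0.913 and 0.894.

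Bone and lung came from the same mouse and were set against each other directly. No member passed the test, where 1 of 13832 genes, 0.00723%, did, and none had an unadjusted p under 0.05, beside 3.78% of all genes higher in bone and 4.68% lower (edgeR); DESeq2 and limma-voom called no member. The median log2 fold change of bone against lung was -0.18, with 14 members higher in bone and 62 lower, beside 51.6% and 47.4% of all genes, whose median was 0.02. Rpl17 was at 955 CPM in bone and 1587 CPM in lung, a log2 fold change of -0.73 (SE 0.35, edgeR adjusted p = 0.613). Rpl29, a heparin-binding 60S protein, was at 510 and 783 CPM (-0.62, edgeR adjusted p = 0.602) and Rpl14 at 872 and 1334 CPM (-0.61, edgeR adjusted p = 0.612). The members highest in bone relative to lung were Rpl11 at 1030 and 921 CPM (0.16), Rpl9 at 735 and 681 CPM (0.11) and Rpl34 at 623 and 578 CPM (0.11). Each of these 3 differences was smaller than its SE, which was 0.31 for Rpl11, and with 1 library a site the interval of a member reached a median of 0.75 on either side.

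**Figure D4:**
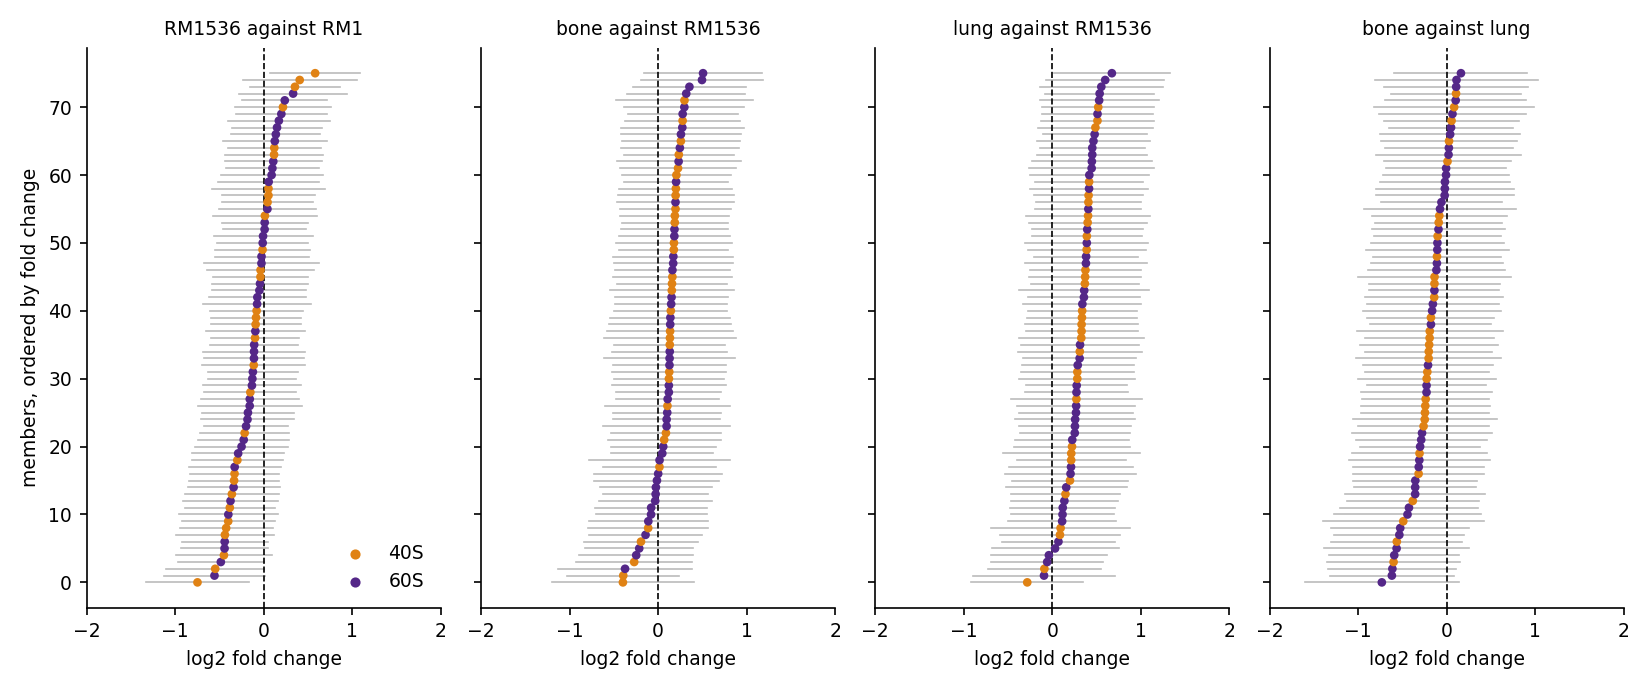
Points are the log2 fold changes of the 76 members in each comparison, ordered within the panel and coloured by subunit, and grey lines are 95% intervals from the edgeR quasi-likelihood fit. The members centre on -0.09, 0.14, 0.33 and -0.18 from left to right, and nearly every interval includes 0.

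Members were then read by role, with no test of any class. Of the stalk proteins, Rplp0 was at 4099 and 3652 CPM in RM1, 4015 and 3165 CPM in RM1536, 4294 CPM in bone and 4002 CPM in lung, Rplp1 ranged from 1387 CPM (RM1 b) to 2119 CPM (lung) and Rplp2 from 595 CPM (RM1536 b) to 864 CPM (lung). Rplp0 was highest in bone and the other stalk genes in lung. Rpl5 and Rpl11, which with 5S rRNA form the particle that binds Mdm2, ranged from 1004 to 1452 CPM and from 874 to 1052 CPM. Rpl5 was lowest in RM1536 b and highest in RM1536 a, and Rpl11 was highest in RM1 a. Rpl23 (942 to 1465 CPM) and Rpl26 (462 to 666 CPM), other Mdm2-linked proteins, were both lowest in RM1536 b and highest in lung.

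Rps6, the substrate of the S6 kinases, was at 1168 and 1218 CPM in RM1, 1222 and 1024 CPM in RM1536, 1321 CPM in bone and 1418 CPM in lung, and RM1536 b was again lowest. Rpsa, which doubles as a laminin receptor, was at 2916 and 2698 CPM in RM1, 2734 and 2322 CPM in RM1536, 2212 CPM in bone and 3267 CPM in lung, and here bone was lowest. Rps27a, a fusion with ubiquitin, ranged from 687 CPM in RM1536 b to 924 CPM in bone. Rps19, the gene most often mutated in Diamond-Blackfan anaemia, was at 777 and 692 CPM in RM1, 607 and 519 CPM in RM1536, 637 CPM in bone and 751 CPM in lung, so both RM1536 cultures lay below RM1 while lung lay within the RM1 range. Rpl38, linked in mice to translation of Hox mRNAs, ranged from 363 CPM in RM1536 b to 500 CPM in lung.

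Genes that act with the ribosomal proteins were counted by fixed lists. Of 20 translation factors and other 5′TOP genes, none passed the test in any of the 4 comparisons, and their median log2 fold changes were -0.0063 for the labelled line against RM1, 0.06 and 0.33 for the cells from bone and from lung against RM1536, and -0.23 for bone against lung. The first of these was positive when libraries were scaled by total counts alone (0.012), and it ran from -0.12 without RM1536 a to 0.052 without RM1536 b. The second was 0.0029 without RM1536 b and 0.19 without RM1536 a. In lung 17 of the 20 lay above both RM1536 cultures by TMM-scaled CPM, beside 37.6% of all genes. Eef1a1, the elongation factor that delivers tRNA, was at 11864 and 11847 CPM in RM1, 11574 and 9259 CPM in RM1536, 9020 CPM in bone and 13040 CPM in lung. Eef2, the translocation factor, was at 5769 and 6448 CPM, 4949 and 4506 CPM, 5917 CPM and 7134 CPM in the same order. Both were highest in lung, and Eef1a1 was low in bone as well as in RM1536 b.

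The 26 RNA polymerase I and rRNA processing genes had medians of 0.15, -0.12, -0.32 and 0.18 in the same 4 comparisons, opposite in sign to the members in each, and under each scaling tried. Without RM1536 b the first 3 were -0.06, 0.13 and -0.058, and without RM1536 a they were 0.30, -0.27 and -0.45, so the first and second signs rested on RM1536 b. The 76 mitochondrial ribosomal protein genes had medians of 0.20, -0.09, -0.11 and 0.03, the last of which was -0.0034 with DESeq2. None of these genes passed the test in any comparison. The 7 snoRNA host genes had medians of -0.57, 0.37, 0.66 and -0.15, with none passing. The first was 0.38 without RM1 b and -0.77 without RM1 a, so its sign rested on RM1 b. All 7 were above both RM1536 cultures in lung and in bone by TMM-scaled CPM, beside 37.6% and 33.6% of all genes. Of 22 regulators, 7 genes of the 5S RNP and Mdm2 axis and 8 of the S6 kinase family, none passed either. Larp1, the 5′TOP-binding repressor, was at 400 to 537 CPM. Myc, which drives ribosome production, was at 24.2 and 48.1 CPM in RM1, 38.4 and 15.3 CPM in RM1536, 8.34 CPM in bone and 124 CPM in lung. Myc was highest in lung, where the members were highest too, but lowest in bone, whereas the members were lowest in RM1536 b. It did not pass the test in any comparison, and a link to the members was not tested.

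**Figure D5:**
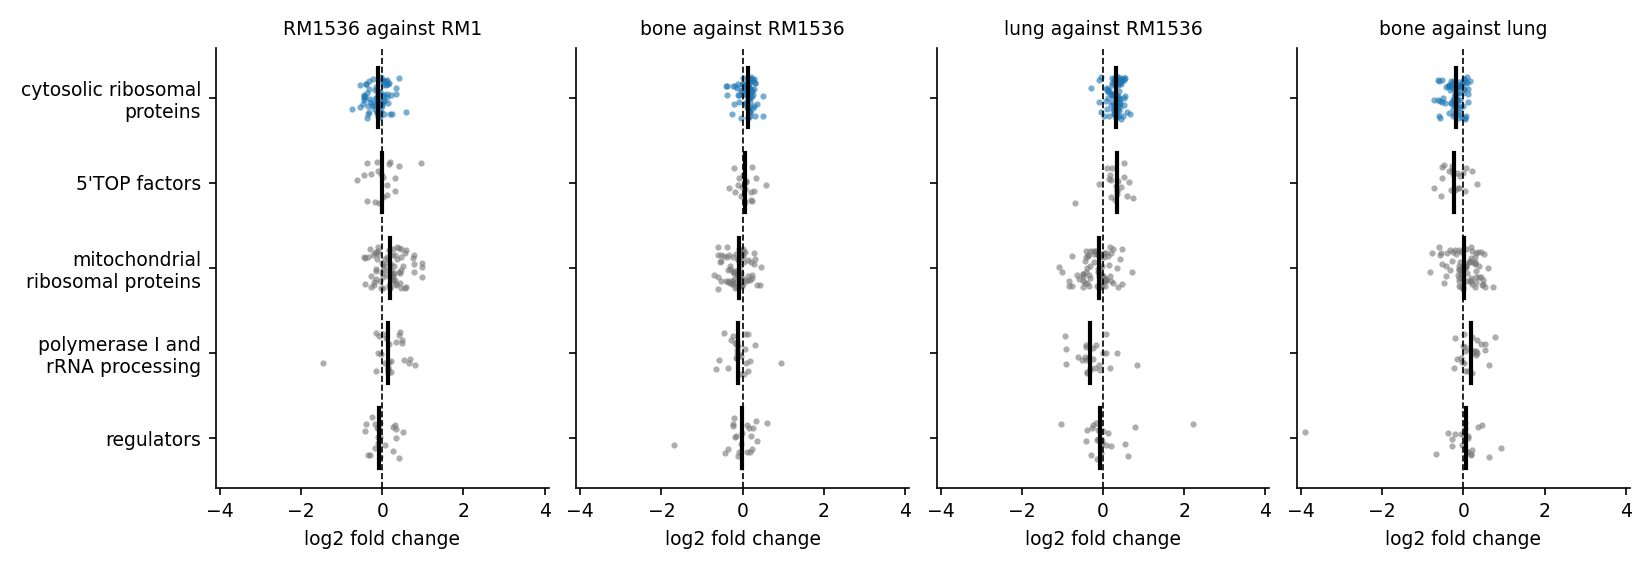
Points are log2 fold changes of the genes of 5 lists in each comparison and black bars their medians. In lung against RM1536 the cytosolic ribosomal proteins and the 5′TOP factors both centre on 0.33, while the polymerase I and rRNA processing genes centre on -0.32.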

How the data were processed

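Gene counts were deposited by the authors as whole-number counts for 6 libraries made with NEBNext Ultra from total RNA. The submitters' processing notes name GRCm38, TopHat2 2.1.10, HTSeq and edgeR, without roles. The strand setting and counting mode were not given in the sources used here, nor was the annotation. Counts under a blank name (0.0063% to 0.0083% of a library) were left out. All 6 libraries entered 1 edgeR 4.0.16 quasi-likelihood model (R 4.3.3) of 4 groups with 2 residual degrees of freedom, TMM scaling and the filterByExpr filter, and p-values were adjusted by Benjamini-Hochberg over 13832 genes. DESeq2 1.42.0 and limma 3.58.1 were alternatives. On simulated counts the edgeR script was tested for known changes larger than those of any member. That check does not show whether changes of the members' size would be found. Members and lists were chosen with earlier results of these data known. Named genes were those passing the test, the 3 highest and 3 lowest members per comparison, members chosen by role, restricted paralogues with their parents, and the 5 highest and 5 lowest per kilobase; Rpl18, Rps3 and others in short counts were named after their values were seen. A few genes under these rules are not reported here. Exon models came from GENCODE M21 and start windows from RefSeq (GRCm38.p6). Chi-square per degree of freedom between duplicates was 97.4 in RM1 and 98.6 in RM1536, so no pair was 1 library deposited again.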

Additional observations from a re-analysis of the deposited data

How the results depend on the processing

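Results were recomputed with other scalings, filters, tools and sets of libraries. The count of members passing the test in RM1536 against RM1 moved from 0 to 1 with no low-count filter and to 1 with DESeq2 (Rps20, adjusted p = 0.0252 and 0.0467), and it was 0 in the other 3 comparisons under every alternative run. Over all genes DESeq2 called 1466, 369, 356 and 213 and the fit with no low-count filter 2394, 859, 1299 and 754 in the 4 comparisons, against 780, 2, 0 and 1, so the background depends on these choices. With 1 culture left out it stayed at 0 in all 4 comparisons. The median log2 fold change of the members ran, with 1 culture left out, from -0.30 to 0.053 in RM1536 against RM1, from -0.0091 to 0.31 in bone against RM1536, from 0.19 to 0.54 in lung against RM1536 and from -0.21 to -0.18 in bone against lung. The ends of the first 3 ranges were the fits without RM1536 a and without RM1536 b. Leaving out the 5 members with the most counts gave shares of 6.50% and 6.55% for RM1, 6.76% and 5.35% for RM1536, 6.33% for bone and 6.98% for lung, lower because fewer genes are summed, and RM1536 b stayed lowest. Of the genes named with a fold change, Rpl9 in lung against RM1536 alone changed sign, to 0.28 without RM1536 a, and it ran from -0.35 to 0.28 with 1 culture left out; the cause was not tested. The labels do not say whether letters a and b pair the cultures. The b minus a deviations of RM1 and RM1536 correlated at -0.37 over 13832 genes, which does not settle how the cultures were grown. With the replicate letter as a block, over the 4 cultures, 0 members and 295 genes passed in RM1536 against RM1, against 836 genes without the block. A crossed pairing, added after seeing the data, gave 2 members (Rps20 and Rps27l) and 3165 genes.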
